A study of Mus musculus with 6 samples.

Results

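The collagens and stellate cell matrix genes described here are Col1a1, Col1a2, Col3a1, Col4a1, Col4a2, Timp1, Acta2, Dcn, Lrat and Des. They were taken as every probe set of the mouse 3' expression array whose gene symbol in the platform annotation is one of these 10 names, which gave 20 of the 45037 probe sets other than controls. RNA came from whole liver of male mice aged 18 weeks, with 3 arrays of the New Zealand Obese strain (NZO) and 3 of the strain C57BL/KS (BKS). NZO mice become obese and diabetic on ordinary chow, and BKS mice, labelled wild type in their titles, were the lean comparison. All animals had free access to standard chow, and the design text calls them littermates without pairing any of them. Neither strain carries an engineered allele in the labels. The strains differ across the genome as well as in body weight and glucose control, and these cannot be told apart here.

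Hepatic stellate cells lie between the hepatocytes and the sinusoidal endothelium and store vitamin A as retinyl esters. After injury they can turn into contractile myofibroblasts that make fibrillar collagen, and this conversion is the main source of scar matrix in liver fibrosis. Fibrillar collagens (types I and III) form the cross-banded fibres of connective tissue, while type IV collagen forms the sheet-like network of basement membranes and is made by endothelial cells as well as stellate cells. In whole tissue, fewer cells of a type and less RNA per cell cannot be told apart.

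The type IV chains are encoded head to head on mouse chromosome 8. Their promoters are shown because the fitted levels of both chains lay lower in NZO, and those of Col3a1 and Lrat because they are the members with the most negative and the most positive log2 fold change. RefSeq sequences on GRCm38.p6 were matched by symbol for 8 of the 10 members, each running from 250 bases before to 50 after the annotated start. Capitals mark a TATA box (TATAA, or TTATA on the other strand), a CCAAT box (CCAAT or ATTGG) or a GC box (GGGCGG or CCGCCC). The windows are Col4a1 at chr8:11312777-11313076, minus strand; Col4a2 at chr8:11312555-11312854, plus strand; Col3a1 at chr1:45311288-45311587, plus strand; and Lrat at chr3:82903925-82904224, minus strand.
Col4a1: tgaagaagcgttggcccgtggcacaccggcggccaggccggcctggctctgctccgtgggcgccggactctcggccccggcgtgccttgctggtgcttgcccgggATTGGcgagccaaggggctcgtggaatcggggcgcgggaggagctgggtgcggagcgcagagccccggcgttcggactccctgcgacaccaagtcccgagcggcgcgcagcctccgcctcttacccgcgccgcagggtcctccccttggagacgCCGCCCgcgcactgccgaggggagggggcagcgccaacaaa
Col4a2: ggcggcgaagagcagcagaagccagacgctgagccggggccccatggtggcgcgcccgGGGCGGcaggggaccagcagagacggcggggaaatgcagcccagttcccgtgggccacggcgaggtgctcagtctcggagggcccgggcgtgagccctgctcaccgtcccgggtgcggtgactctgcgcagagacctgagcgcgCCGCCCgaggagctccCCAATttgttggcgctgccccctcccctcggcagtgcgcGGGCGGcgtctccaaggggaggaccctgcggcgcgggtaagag
Col3a1: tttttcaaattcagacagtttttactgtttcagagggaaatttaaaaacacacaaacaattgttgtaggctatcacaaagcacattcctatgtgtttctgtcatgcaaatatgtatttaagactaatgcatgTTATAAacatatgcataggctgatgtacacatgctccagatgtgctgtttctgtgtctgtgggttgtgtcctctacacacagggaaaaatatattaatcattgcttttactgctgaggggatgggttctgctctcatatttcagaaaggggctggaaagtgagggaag
Lrat: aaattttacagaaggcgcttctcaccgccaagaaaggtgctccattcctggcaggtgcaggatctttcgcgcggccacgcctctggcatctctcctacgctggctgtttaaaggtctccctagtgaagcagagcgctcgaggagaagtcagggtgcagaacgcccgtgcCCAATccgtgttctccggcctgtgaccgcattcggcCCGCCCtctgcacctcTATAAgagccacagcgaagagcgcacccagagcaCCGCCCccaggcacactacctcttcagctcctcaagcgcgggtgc
The Col4a1 and Col4a2 windows share 78 bases, identical on opposite strands, and the annotated starts lie 21 bases apart. Both are rich in G and C (74.0% in Col4a1 and 73.7% in Col4a2), and each holds 1 CCAAT box. GC boxes number 1 in the Col4a1 window and 3 in that of Col4a2. The Col3a1 window is 37.7% G and C, and its capitals are TATAA and TTATA overlapping on opposite strands. Lrat has 1 TATA box, 1 CCAAT box and 2 GC boxes. Among 32851 promoter windows of the same length, 24.9% hold a TATA box on either strand, 37.4% a CCAAT box and 35.7% a GC box, so none of these motifs is rare.

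Expression is on the log2 scale of RMA, a method that removes background, gives all arrays the same probe distribution and merges the probes of a set into one value. Array medians lay between 5.08 and 5.22, and a probe set under the median of every array is called dim here, since no detection calls were used. NZO replicate 1 and BKS replicate 1, whose titles both carry the number 1, stood apart in the spiked-in hybridization controls (8.17 and 9.29, against 10.2 to 11.5 on the other 4 arrays). No label or header states a batch, and these 2 arrays are set against the other 4 below only because of that shared number and these controls. The excess of 3' over 5' signal for beta-actin, which grows as transcripts are shortened, was 1.29 to 1.39 in NZO and 1.72 to 2.33 in BKS. It moved with strain, and its part in the results below was not tested. Markers of liver were present: albumin (Alb) lay at 14.62 in NZO and 14.83 in BKS, and of 11 stellate cell markers, 6 of them members of the set described here, 8 lay above the medians on all arrays. Col1a1 and Lrat did so on 5 arrays, and the stellate cell transcription factor Lhx2 was dim. Of the 20 member probe sets, 9 lay above the medians on all arrays, 5 on some and 6 on none. Each gene is described first by its brightest probe set, the one with the highest mean.

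No member differed between the strains at an adjusted p below 0.05. That holds for 0 of 20 probe sets in limma over 45037 probe sets with Benjamini-Hochberg adjustment, where 0.424% of all probe sets passed (0.191% higher and 0.233% lower in NZO). The smallest adjusted p of a member was 0.300. At an unadjusted p below 0.05 there were 5 member probe sets, 3 lower and 2 higher in NZO, against 10.1% of all probe sets. By sign alone, 9 of 10 collagen probe sets had a log2 fold change (NZO minus BKS) below 0, with a median of -0.23, and 10 of 10 probe sets of the other members had one above 0, with a median of 0.29. The median over all probe sets was 0.00, but over the 16482 with a mean of at least 6 it was -0.14. Over the member probe sets among those 16482 it was -0.18. The counts by sign include 6 probe sets that were dim. Over the 4 arrays without the number 1, only 2 of 5 collagens, each by its brightest probe set, lay below 0. Strain values did not overlap for 4 member probe sets that were lower in NZO and 3 that were higher, where 8.49% and 6.83% of all probe sets did so.

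**Figure D1:**
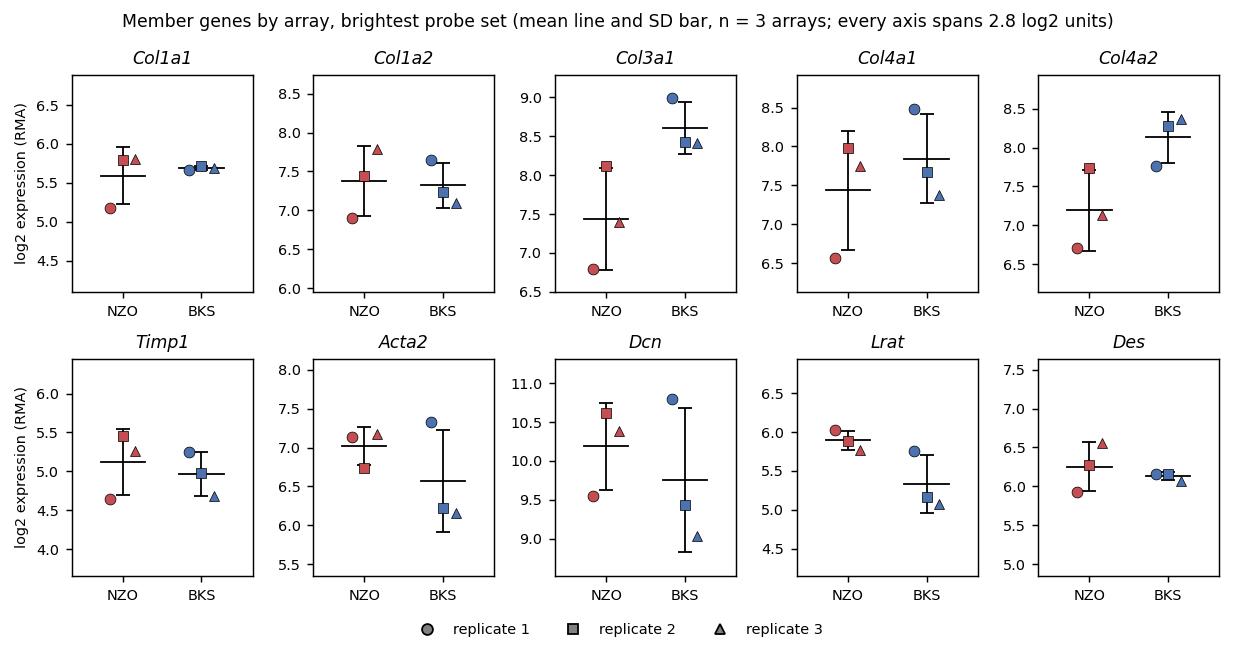
Log2 expression of the 10 members on each array, NZO left of BKS, with each strain's mean as a line and its SD as a bar (n = 3). Col3a1 and Col4a2 lie lower in all 3 NZO arrays than in any BKS array, and the circle of NZO replicate 1 is the lowest point for all 5 collagens.

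Among the fibrillar collagens, Col3a1, the chain of type III collagen, had the most negative log2 fold change of any member. Its probe set 1427883_a_at read 6.80, 8.12 and 7.39 in NZO, against 8.99, 8.43 and 8.41 in BKS. All NZO values lay below all BKS values, with a gap of 0.29. The log2 fold change was -1.17 with a standard error of 0.34 (95% interval -1.99 to -0.36, a 2.25-fold lower level), and limma gave an adjusted p of 0.300. The interval leaves out 0 while the adjusted p does not pass. The other Col3a1 probe set, 1427884_at, was dim on every array (3.57 to 4.02) and overlapped between strains.

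Col1a1 and Col1a2 encode the chains that together form type I collagen, the main fibre of scar tissue. Col1a2 probe set 1450857_a_at read 6.90, 7.44 and 7.79 in NZO, against 7.64, 7.24 and 7.09 in BKS, so the strains overlapped fully. Its log2 fold change was 0.05 (95% interval -0.56 to 0.67, adjusted p = 0.971 in limma). Col1a1 probe set 1423669_at stood at 5.18, 5.79 and 5.81 in NZO and at 5.67, 5.71 and 5.69 in BKS. BKS arrays hardly varied (SD 0.02), and NZO arrays lay on either side of them (SD 0.36), which gave a log2 fold change of -0.10 (95% interval -0.56 to 0.37, adjusted p = 0.925). Neither interval shows that type I collagen was equal in both strains. Of the remaining 3 probe sets of type I collagen, 2 were dim throughout and 1423110_at of Col1a2 was above the median only in BKS replicate 1 (5.81, against 4.56 to 4.97 on the other arrays). The dim Col1a1 probe set 1455494_at was lower in all NZO arrays (4.30 to 4.47, against 4.52 to 4.77 in BKS) with a log2 fold change of -0.28 (adjusted p = 0.550).

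For the basement membrane collagens, Col4a2 had a single probe set, 1424051_at. It read 6.71, 7.74 and 7.13 in NZO, against 7.76, 8.27 and 8.37 in BKS. Strains were separated only just, by 0.02 between NZO replicate 2 and BKS replicate 1. The log2 fold change was -0.94 with a standard error of 0.29 (95% interval -1.63 to -0.25, a 1.92-fold lower level, adjusted p = 0.332 in limma). With the number 1 arrays as a block in the fit, Col4a2 passed (adjusted p = 0.0408) and was the only member to do so, where 2.97% of all probe sets passed (2.04% lower and 0.926% higher in NZO).

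Col4a1, the partner of Col4a2 in the same collagen trimer, gave a mixed picture. Probe set 1426348_at read 6.33, 6.61 and 6.64 in NZO, against 7.06, 6.94 and 6.92 in BKS. The strains did not overlap, with a gap of 0.28 and narrow spread within each (SD 0.17 in NZO and 0.08 in BKS), and the log2 fold change was -0.45 (95% interval -0.78 to -0.12, adjusted p = 0.333). The brighter probe set 1452035_at read 6.57, 7.98 and 7.75 in NZO, against 8.48, 7.67 and 7.38 in BKS. Here NZO replicate 1 was the lowest and BKS replicate 1 the highest of all arrays, and the other 4 ran the opposite way. Its log2 fold change was -0.41 (95% interval -1.44 to 0.62, adjusted p = 0.833). Both probe sets therefore had a similar mean difference, with a within-strain spread several times wider in the brighter one. Markers of endothelium, which also makes type IV collagen, lay in the other direction: 12 of 12 had a log2 fold change above 0, with a median of 0.42 and none past the test. Their summed log2 level was 78.49 to 87.51 in NZO and 75.86 to 78.55 in BKS. The strains overlapped narrowly, since NZO replicate 1, the lowest NZO array, lay just below BKS replicate 1, the highest BKS array. The part of these markers in the collagen values was not tested.

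**Figure D2:**
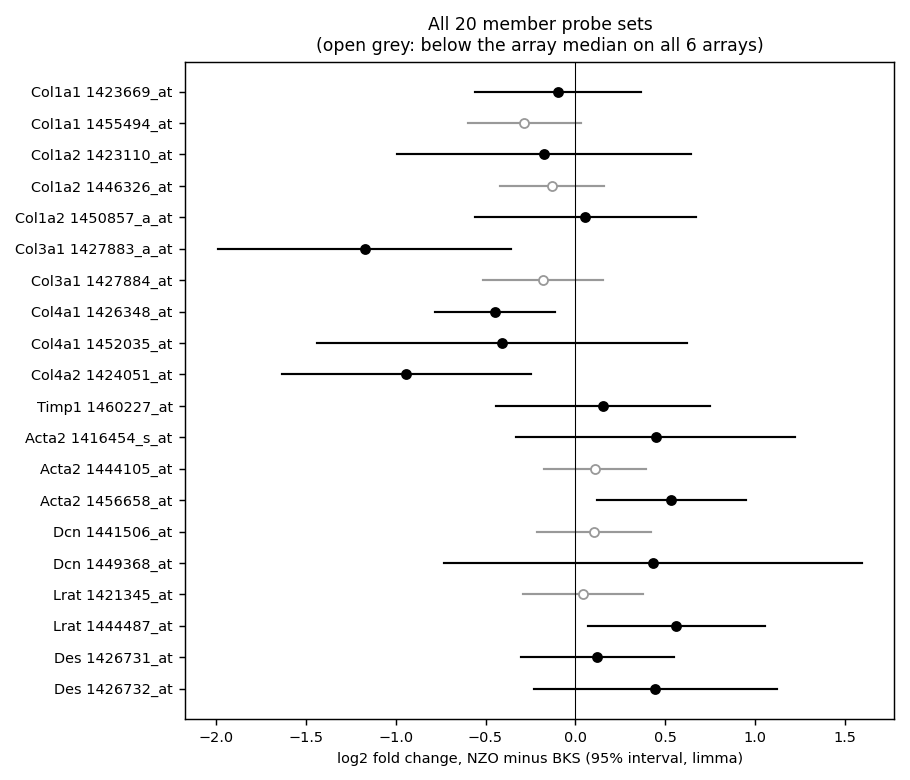
Log2 fold change, NZO minus BKS, of all 20 member probe sets with 95% intervals from limma. Intervals of Col3a1 1427883_a_at, Col4a1 1426348_at and Col4a2 lie below 0, those of Acta2 1456658_at and Lrat 1444487_at above 0, and none of the 20 passed after adjustment.

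To set the fibrillar against the basement membrane collagens, each gene's brightest probe set was expressed as its deviation from the BKS mean and averaged per array. The 3 fibrillar genes averaged -0.92, -0.09 and -0.21 in NZO, against 0.23, -0.08 and -0.15 in BKS. For Col4a1 and Col4a2 the average was -1.35, -0.13 and -0.55 in NZO, against 0.13, -0.02 and -0.11 in BKS. Both classes were thus lowest in NZO replicate 1, and NZO replicate 2 lay among or beside the BKS arrays. The NZO minus BKS difference was -0.41 for fibrillar and -0.67 for basement membrane collagens. Without NZO replicate 1 these became -0.15 and -0.34, and without both number 1 arrays -0.037 and -0.27. Fibrillar minus basement membrane was 0.44, 0.04 and 0.34 in NZO, against 0.09, -0.06 and -0.03 in BKS, a difference of 0.27 with overlap at NZO replicate 2. No p-value is given for these averages, since the members were chosen with results known, and the fibrillar average rests on Col3a1, with Col1a1 and Col1a2 near 0.

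**Figure D3:**
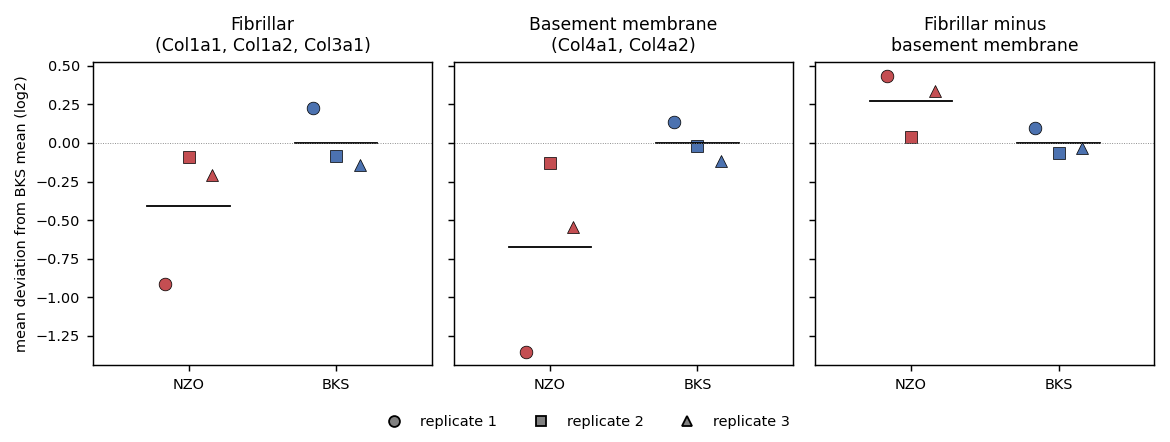
Mean deviation from the BKS mean (log2) on each array for 3 fibrillar collagens, 2 basement membrane collagens and their difference, NZO left of BKS, with lines at strain means. NZO replicate 1 is the lowest array in the first panel (-0.92) and in the second (-1.35).

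All probe sets of the stellate cell markers Lrat and Des had log2 fold changes above 0, with none past the test. Lrat encodes lecithin retinol acyltransferase, the enzyme that makes the retinyl esters stellate cells store. Its probe set 1444487_at read 6.02, 5.89 and 5.77 in NZO, against 5.76, 5.16 and 5.07 in BKS. All NZO arrays were higher, though by only 0.004 between NZO replicate 3 and BKS replicate 1. The log2 fold change was 0.56 (standard error 0.21, 95% interval 0.07 to 1.06), a 1.48-fold higher level with an adjusted p of 0.420 in limma and 0.0956 with the number 1 block. The other Lrat probe set was dim on all arrays (3.81 to 4.15), with a log2 fold change of 0.04.

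Des encodes desmin, the intermediate filament protein used to stain rodent stellate cells and also found in vascular smooth muscle. Probe set 1426731_at read 5.93, 6.27 and 6.55 in NZO, against 6.16, 6.16 and 6.07 in BKS, with overlap and a log2 fold change of 0.12 (adjusted p = 0.891). The second, 1426732_at, read 6.33, 5.53 and 6.12 in NZO, against 6.05, 5.28 and 5.32 in BKS. In this probe set the replicate 1 array of BKS lay within the NZO range, and the log2 fold change was 0.44 (adjusted p = 0.695).

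Acta2, alpha smooth muscle actin, is the standard marker of the activated, contractile state and is made by vascular smooth muscle as well. Probe set 1416454_s_at read 7.13, 6.74 and 7.18 in NZO, against 7.33, 6.22 and 6.16 in BKS. Such a probe set (_s_at) can match more than 1 transcript family, so its signal may not come from Acta2 alone. BKS replicate 1 was the highest array and the other BKS arrays were the lowest, and the log2 fold change was 0.45 (95% interval -0.33 to 1.22, adjusted p = 0.740). The gene-specific probe set 1456658_at read 5.27, 4.93 and 5.42 in NZO, against 4.86, 4.61 and 4.55 in BKS. It did not overlap between the strains (gap 0.06, log2 fold change 0.53, 95% interval 0.12 to 0.95, adjusted p = 0.361), but it was above the array median only on 2 NZO arrays. A dim Acta2 probe set, 1444105_at, gave 0.11. Smooth muscle markers, the other source of Acta2 and Des, had 7 of 9 log2 fold changes above 0, Acta2 and Des among the 9, with a median of 0.12 and summed log2 levels of 45.8 to 47.6 in NZO and 44.7 to 47.5 in BKS.

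Dcn encodes decorin, a small proteoglycan that binds collagen fibres, and Timp1 an inhibitor of the matrix metalloproteinases that break collagen down. Dcn probe set 1449368_at read 9.55, 10.62 and 10.39 in NZO, against 10.80, 9.43 and 9.03 in BKS. It had the widest spread within BKS of any member probe set (SD 0.93), and its log2 fold change of 0.43 had a 95% interval of -0.73 to 1.60 (adjusted p = 0.849). A dim Dcn probe set, 1441506_at, gave 0.10. Timp1, measured by 1460227_at, read 4.64, 5.46 and 5.26 in NZO, against 5.24, 4.97 and 4.68 in BKS. These levels lie around the array medians, the strains overlap, and the log2 fold change was 0.15 (95% interval -0.44 to 0.75, adjusted p = 0.905).

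Most of these comparisons differed between the number 1 arrays and the other 4, and what sets those arrays apart was not tested. Between NZO replicate 1 and BKS replicate 1 the difference was below 0 for all 5 collagens, while over the other 4 arrays it was below 0 for Col3a1 and Col4a2 alone. In 7 of the 10 genes the sign changed between these sets of arrays. Dcn was the clearest case: the number 1 arrays differed by -1.25 and the other 2 against 2 by 1.27, where it passed the test in limma (adjusted p = 0.0247, with 2.65% of all probe sets past it, 1.38% higher and 1.26% lower in NZO). It was the only member to pass among those 4 arrays. Col4a2 kept its direction and nearly its size, at -1.05 between the number 1 arrays and -0.89 over the others (adjusted p = 0.0976). Col3a1 differed by -2.20 and -0.66 (adjusted p = 0.228), and Lrat by 0.26 and 0.71 (adjusted p = 0.0662). With 1 array per strain the number 1 pair allows no test.

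**Figure D4:**
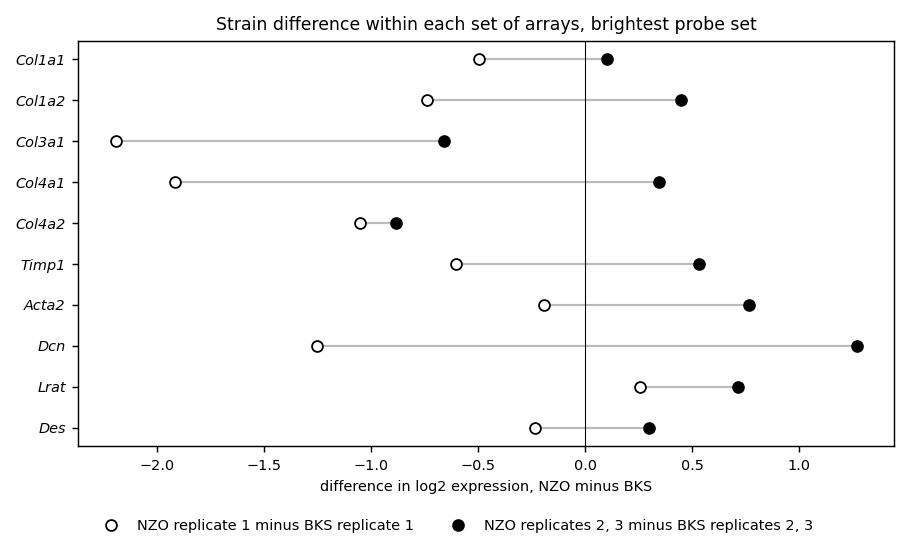
Strain difference in log2 expression, NZO minus BKS, for the brightest probe set of each member, between the replicate 1 arrays (open) and between replicates 2 and 3 (filled). Col3a1, Col4a2 and Lrat keep their sign, and Dcn runs from -1.25 to 1.27.

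The members were then set beside wider lists of matrix and stellate cell genes, each gene by its brightest probe set. Of 164 genes in 11 lists, 1 rose in NZO and none fell (limma, adjusted over all probe sets), a share of 0.61% beside 0.566% of all 18193 genes (0.242% higher and 0.324% lower). The gene that rose was a fibrillar collagen outside the members, Col5a3, a chain of type V collagen, which is found in fibres of types I and III. It read 7.05, 7.19 and 7.23 in NZO, against 5.87, 5.35 and 5.72 in BKS, a log2 fold change of 1.51 (standard error 0.17, adjusted p = 0.0239, a 2.84-fold higher level). Every NZO array lay more than a log2 unit above every BKS array. A second Col5a3 probe set was dim (mean 4.12) and gave 0.05. The call was lost without NZO replicate 2 or 3 or BKS replicate 2 or 3 (adjusted p = 0.0856, 0.131, 0.108 and 0.116), while the log2 fold change stayed between 1.36 and 1.68 under every setting tried.

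Of 11 fibrillar collagens, 6 had a log2 fold change above 0, with a list median of 0.05. Among 6 basement membrane collagens 3 did, with a median of 0.08, and 3 of the 6 were dim. Col4a6 was at 0.40 (adjusted p = 0.374). In 16 other collagens, 11 lay above 0 with none past the test (median 0.10), with Col18a1 at -0.60 (adjusted p = 0.631) and Col15a1 at 0.33 (adjusted p = 0.670), both collagens of the basement membrane zone. Other basement membrane proteins had 11 of 15 above 0 (median 0.13), with the laminin chains Lama4 at 0.33 (adjusted p = 0.394) and Lama5 at 0.58 (adjusted p = 0.500). Beside the median over all genes of -0.03, the medians of the 3 collagen lists were not negative. Dim genes numbered 2 of 11 fibrillar, 3 of 6 basement membrane and 3 of 16 other collagens, and their differences may be compressed. These medians therefore cannot show whether the brighter collagens shared the negative values of Col3a1 and Col4a2. Genes of collagen processing and crosslinking had 3 of 16 values above 0 and a median of -0.21, with none past the test. In that list P4ha2, a subunit of the prolyl hydroxylase that stabilises the collagen helix, was at -0.58 (adjusted p = 0.287), and Pcolce, which speeds procollagen trimming, at -0.88 (adjusted p = 0.346). The brightest probe set of the crosslinking transglutaminase Tgm2 passed with the number 1 block and under no other setting (log2 fold change -0.93, adjusted p = 0.0469). Other Tgm2 probe sets gave -0.30 at a mean of 10.34, -0.98 at 10.06, -0.98 at 9.88, 0.39 at 8.07 and 0.03 at 4.16. Of these, only those at means of 10.06 and 9.88 passed with the block (adjusted p = 0.0438 and 0.0412). The probe sets of Tgm2 thus disagree in sign.

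Signalling that drives stellate cell activation was covered by 23 genes of the TGF beta and PDGF pathways, with 11 above 0, a median of -0.09 and none past the test. The receptor Tgfbr2 read 6.04, 7.50 and 6.36 in NZO, against 8.43, 8.33 and 9.09 in BKS. It had the most negative log2 fold change of the 11 lists (-1.98, standard error 0.40), with an adjusted p of 0.137, or 0.0291 with the number 1 block. It also passed with cyclic loess (0.0437) and among probe sets with a mean of at least 6 (0.0409). The same held with a trended robust variance (0.0334) and array weights (0.0355), and under none of the other 9 alternatives. Its other probe sets gave 0.13, at a mean of 3.47, and 0.03, at a mean of 5.40. Its partner receptor Tgfbr1 was at -0.75 (adjusted p = 0.239). Other Tgfbr1 probe sets gave 0.16, at a mean of 4.31, and 0.12, at a mean of 4.23. Matrix proteases and inhibitors had 7 of 16 above 0 (median -0.04), led by Mmp19 at 0.94 (adjusted p = 0.209) and the inhibitor Timp3 at 0.71 (adjusted p = 0.387). Mmp19 passed in limma after a second quantile normalization (0.0479), over the 2 against 2 arrays (0.0429) and with array weights (0.0464). Timp3 passed over the 2 against 2 arrays alone (adjusted p = 0.0373). Small proteoglycans and glycoproteins had 10 of 18 above 0 (median 0.04), with Thbs2 at 0.37 (adjusted p = 0.368) and Fbln1 at 0.36 (adjusted p = 0.543).

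Lists of stellate cell state showed no call. Of 18 markers of quiescent stellate cells, 12 had a log2 fold change above 0 (median 0.06), and Reln, a secreted glycoprotein of these cells, was at -0.47 (adjusted p = 0.438). The other Reln probe set gave 0.29, at a mean of 4.78. Of 15 markers of activated cells and myofibroblasts, 8 lay above 0 (median 0.04), with Cnn1, a smooth muscle calponin, at 0.33 (adjusted p = 0.629). Retinoid genes had 9 of 18 above 0 (median -0.05). There Cyp26b1, which degrades retinoic acid, read 6.32, 7.49 and 7.37 in NZO, against 5.87, 6.21 and 6.02 in BKS, with a log2 fold change of 1.02. Its adjusted p was 0.322, and it passed with the number 1 block (0.0428), with array weights (0.0463), without NZO replicate 1 (0.0254) and over the 2 against 2 arrays (0.0114). The lipase Lpl was at -1.54 (adjusted p = 0.300). With the block, 2 of the 164 genes rose, Col5a3 and Cyp26b1, and 3 fell, Col4a2, Tgfbr2 and Tgm2, a share of 3.05% beside 4.2% of all genes.

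**Figure D5:**
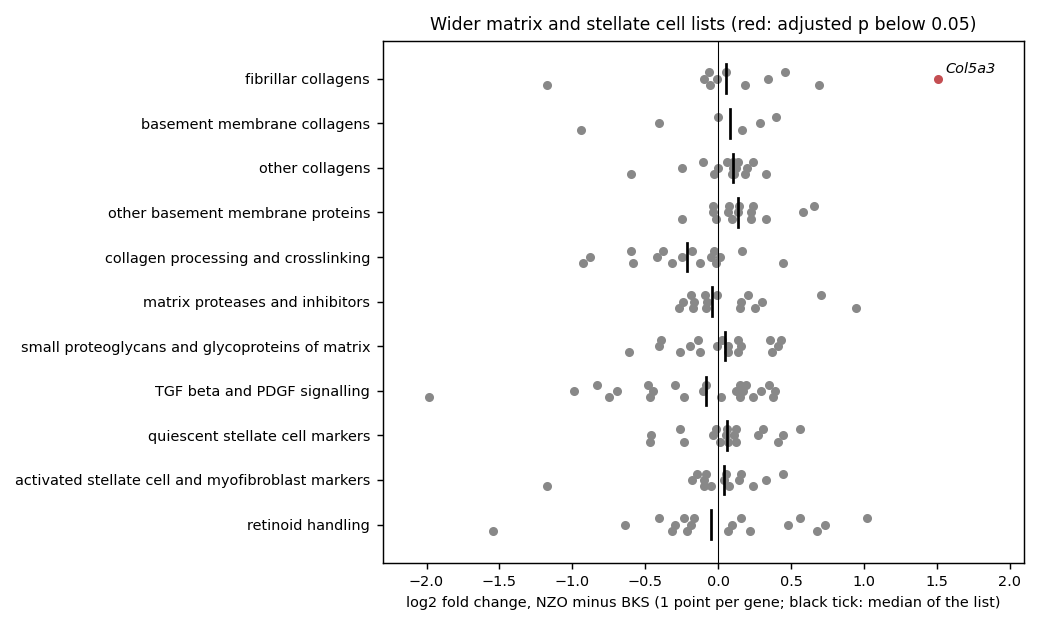
Log2 fold change, NZO minus BKS, of each gene of 11 matrix and stellate cell lists, with list medians as ticks. Col5a3 at 1.51 is the only gene past the test, and list medians lie between -0.21 and 0.13.

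Of 79 markers of 10 cell types that liver tissue can hold, each by its brightest probe set, none passed in limma. Among their 57 other probe sets 1 passed, of the hepatocyte transcription factor Hnf4a, at 8.89, 9.07 and 8.60 in NZO, against 7.44, 7.20 and 7.59 in BKS. It gave 1.45 (adjusted p = 0.0303), while the brightest Hnf4a probe set gave -0.39 (adjusted p = 0.631), so the probe sets of this gene disagree in sign. Of 162 other probe sets of the matrix and stellate lists, none passed.

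Hepatocyte markers were low on the same array as the collagens. Their mean log2 level was 13.0 in NZO replicate 1, 13.96 and 13.98 in the other NZO arrays, and 13.90, 13.92 and 13.95 in BKS. Of the 8 markers, 1 lay above 0 (median -0.35, or -0.04 over the 2 against 2 arrays), with the apolipoprotein Apoa1 at -0.52 (adjusted p = 0.672). The mean over the whole array was also lowest in NZO replicate 1, at 5.78 against 5.91 to 5.94 on the other arrays. Apoa1 was at -0.17 after a second quantile normalization and at -0.12 with cyclic loess. The part of the low array mean or of the hepatocyte markers in the collagen values was not tested.

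Stellate cell markers had 6 of 11 above 0, with summed log2 levels of 74.1 to 79.5 in NZO and 75.3 to 80.7 in BKS. Portal fibroblasts, another source of fibrillar collagen, had 5 of 9 markers above 0 (median 0.02), and their sums were 48.1 to 50.2 in NZO and 48.8 to 50.7 in BKS. In that list Gpx3 was at 0.58 (adjusted p = 0.578) and Dpt, which encodes dermatopontin, at -0.75 (adjusted p = 0.627). Endothelial Pecam1 was at 0.71 (adjusted p = 0.140, or 0.0455 with the number 1 block), and the sinusoidal scavenger receptor Stab2 at 0.92 (adjusted p = 0.249). Stab2 passed in limma after a second quantile normalization (adjusted p = 0.0229) and with cyclic loess (0.0298). Pecam1 also passed with array weights (0.0283) and over the 2 against 2 arrays (0.0416).

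Kupffer cell and macrophage markers had 6 of 11 above 0, and their median was 0.02 over all arrays but 0.52 over the 2 against 2. The macrophage receptor Vsig4 was at 1.08 (adjusted p = 0.559) and at 1.96 over those 4 arrays, where it passed (adjusted p = 0.0073), and Cd68 was at 0.77 (adjusted p = 0.468). Over the same 4 arrays 5 of the 79 markers passed, all higher in NZO: Vsig4, Pecam1, Gpx3, the fatty acid binding protein Fabp4 and Dcn. Of all probe sets, not only the brightest of each gene, 1.38% passed higher and 1.26% lower in NZO in that fit. These shares are therefore not like for like with the marker count. In the main fit 0.566% of genes passed by the brightest probe set, beside 0.424% of all probe sets. Endothelial markers had a median of 0.64 over those 4 arrays. Their part in the result for Dcn was not tested.

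Smooth muscle Smtn was at 0.35 (adjusted p = 0.592). For cholangiocytes 4 of 6 markers lay above 0 (median 0.11), with Epcam at 0.73 (adjusted p = 0.807) and Sox9 at 0.14 (adjusted p = 0.810). That Epcam probe set read 9.78 in NZO replicate 1 and 7.07 to 7.73 on the other arrays. The other Epcam probe set gave -0.09, at a mean of 4.71. Mesothelium had 2 of 6 markers above 0 (median -0.13), with Gpm6a at -0.43 (adjusted p = 0.681) and Upk3b at -0.28 (adjusted p = 0.784). Fat and skeletal muscle markers had 2 of 3 and 3 of 6 above 0 (medians 0.20 and 0.04). Among them Fabp4 was at 0.81 (adjusted p = 0.708), Lep at 0.20 (adjusted p = 0.770), Acta1 at 0.16 (adjusted p = 0.814) and Myh1 at 0.11 (adjusted p = 0.843), and the fat cell marker Adipoq was dim. The other Fabp4 probe sets gave 0.30, -0.13 and -0.27.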

How the data were processed

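Liver RNA of male mice was measured in 3 NZO and 3 BKS samples, 1 array each, grouped by the strain label. The authors deposited log2 values, 1 per probe set. The submitters' processing notes name RMA and Affymetrix Expression Console, and versions are not given in the sources used here. Replicate numbers name arrays in accession order and pair nothing, and the labels do not say that each array is a separate animal, so p-values may measure only technical spread. The number of arrays limits the precision.

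Control probe sets (64) did not enter. Of the other 45037, 34945 had exactly 1 symbol in the platform annotation (18193 genes), 932 had several and 9160 stay unnamed. The test was limma (version 3.58.1, R 4.3.3; lmFit, then eBayes; two-sided, no covariate), with Benjamini-Hochberg adjustment over all 45037 probe sets and a threshold of 0.05. Fold changes are NZO minus BKS. The model was tested on simulated data with independent noise and no array effect. That simulation cannot show how the fit behaves with arrays that stand apart, such as the number 1 arrays. Alternatives changed the normalization, filter, probe set, block of number 1 arrays, variance model, weights and arrays included. Named are all member probe sets and, per list, up to 4 genes past the test or otherwise the 2 with the smallest p. Tgm2, Lhx2, albumin, Adipoq and the second Hnf4a probe set were named after their values were seen. Of the wider lists, genes with no matched probe set were not analysed here. Members, lists and the block were chosen with earlier results of these data known. Promoters are RefSeq's on GRCm38.p6. Figures used matplotlib 3.10.9.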

Additional observations from a re-analysis of the deposited data

How the results depend on the processing

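No member probe set passed in limma under 12 of the 14 alternatives. The exceptions were Col4a2 with the number 1 block (1 lower) and Dcn over 2 against 2 arrays (1 higher). Over all probe sets, the calls were 86 higher and 105 lower in NZO. They were 320 and 284 after a second quantile normalization, 320 and 264 with cyclic loess, 417 and 919 with the number 1 block, 623 and 569 over 2 against 2 arrays, 180 and 193 with a trended robust variance, and 319 and 510 with array weights. With 1 array left out they ran from 14 to 165 higher and from 12 to 107 lower. Omitting NZO replicate 1 gave 165 and 107, NZO replicate 2 gave 41 and 63, NZO replicate 3 gave 18 and 17, BKS replicate 2 gave 14 and 12, and BKS replicate 3 gave 15 and 21. In the wider lists 1 gene was higher and 0 lower. After quantile normalization 3 were higher, and with cyclic loess 2 were higher and 1 lower. With the filter at a mean of 6 and with the trended variance, 1 was lower in each. Col5a3 stayed higher in both (adjusted p = 0.0173 and 0.00606 in limma). Calls were 3 and 3 with the block, 9 higher over 2 against 2 arrays, and 4 higher and 1 lower with weights. Leaving out 1 array gave 0 to 2 higher and 0 lower.

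The fibrillar average was -0.41, and -0.037 over 2 against 2 arrays. With 1 array left out it ran from -0.56 to -0.15 (-0.15 without NZO replicate 1), the basement membrane average from -0.95 to -0.34 and the difference from 0.19 to 0.39. Signs turned, without a call, for 7 member probe sets and for Epcam, given here as the leave-one-out range and the turned values. Col1a1 1423669_at ranged from -0.21 to 0.11 (0.11 without NZO replicate 1, 0.10 over 2 against 2 arrays, 0.024 with weights) and Col1a2 1423110_at from -0.39 to 0.23 (0.23 without BKS replicate 1, 0.19 over 2 against 2 arrays, 0.11 with weights). Col1a2 1450857_a_at ranged from -0.15 to 0.29 (-0.15 without NZO replicate 3, -0.06 without BKS replicate 3) and Col4a1 1452035_at from -0.68 to 0.025 (0.025 without NZO replicate 1, 0.35 over 2 against 2 arrays, 0.0045 with weights). Timp1 ranged from -0.015 to 0.39 (-0.015 without NZO replicate 2) and Des 1426731_at from -0.030 to 0.28 (-0.030 without NZO replicate 3). Lrat 1421345_at ranged from -0.055 to 0.12 (-0.055 without NZO replicate 1, -0.0019 without BKS replicate 1, -0.10 over 2 against 2 arrays, -0.025 with weights), and Epcam from -0.13 to 1.22 (-0.13 without NZO replicate 1). The cause was not tested. Col3a1 1427883_a_at stayed between -1.51 and -0.66 and Col4a2 between -1.21 and -0.70 under all 14 alternatives, and Lrat 1444487_at between 0.43 and 0.78 in the 13 that kept it. No paired analysis was possible because the titles share only the number 1 between the strains. Probe sets near the array medians carry little signal over background, so their differences may be compressed.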
